A study of Mus musculus with 18 samples.

Results

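Colon crypts of WT mice that had carried microbes for life (CONV-WT) were compared with those of germ-free-born WT mice 14 days after they were given a microbiota (COLONIZED-WT), over all genes of the deposited count table. The comparison was chosen by these 2 group labels and used 6 of the series' 18 RNA-Seq libraries, 3 per group. The series crosses genotype (WT or Ern2-/-) with microbial state (GF, COLONIZED or CONV) in C57BL/6 mice. It asks how gut microbes and ERN2, an endoplasmic reticulum sensor kinase and endonuclease of mucus-secreting epithelia, shape crypt gene expression. The microbes are the difference of interest here, lifelong against recent, with WT genotype, C57BL/6 strain and colon crypt source shared by both groups.

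CONV-WT mice were bred with microbes in a specific pathogen-free facility. COLONIZED-WT mice came from a colony rederived germ free, and received the cecal contents of CONV-WT donors, by the study's account, in 1 gavage, after which they were kept in sterile cages until day 14. The labels themselves name no donor, age or sex. Time since exposure, age at exposure and the place of rearing therefore cannot be told apart in this contrast. The labels number the libraries 1 to 3 in each group and do not state that each is a separate animal, so p-values measure the spread between these libraries. A supplementary legend of the study shows RNA-Seq values of CONV mice by individual mouse, without naming these libraries. Crypts were released with EDTA and retained on a strainer, and RNA of whole crypts was sequenced, so fewer cells of a type and less RNA per cell cannot be told apart.

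The colon crypt holds stem and dividing cells at its base and absorptive colonocytes, goblet cells, enteroendocrine cells and tuft cells above them. Goblet cells secrete the gel-forming mucin MUC2 with partner proteins such as FCGBP and CLCA1, and, with other crypt cells, antibacterial proteins such as RELMb (Retnlb) and angiogenin 4 (Ang4). Microbes are known to act on mucus secretion, antibacterial proteins and colonocyte metabolism, and microbial signals in early life are known to leave lasting marks on the mucosa.

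The COLONIZED-WT libraries held 19821960, 20430725 and 18824582 counts, and the CONV-WT libraries 15877968, 14893250 and 8198204, so the depths of the groups did not overlap and depth and group cannot be told apart. CONV-WT 3 stood apart from all other libraries. Its Euclidean distance on variance-stabilized counts to the other 5 libraries was 85.5 to 94.9, against 37.8 to 51.0 among those 5. The 3 COLONIZED-WT libraries were 37.8 to 41.1 from each other, CONV-WT 1 and 2 were 41.2 apart, and the distances between these 2 sets were 42.7 to 51.0. Among 10896 genes with a mean of at least 50 normalized counts (counts divided by the library's size factor), 1014 were more than 2-fold below every other library in CONV-WT 3 and 270 were more than 2-fold above every other one. Malat1, a nuclear RNA, had 110066 normalized counts in CONV-WT 3 against 6626 to 22389 elsewhere, and Muc2 had 26843 against 143837 to 232829. Where leaving it out changes the call of a gene named below, the values with and without it are given, and the fit without it is read here knowing its values.

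**Figure D1:**
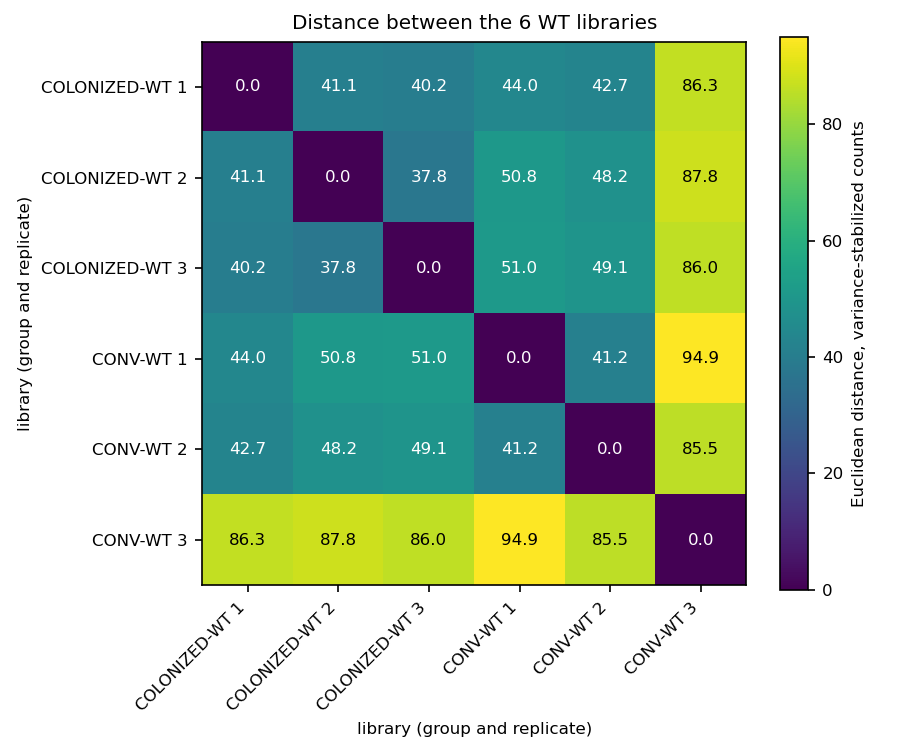
Euclidean distances between the 6 libraries on variance-stabilized counts, as a matrix with libraries on both axes and the distance in each cell. CONV-WT 3 is at 85.5 to 94.9 from every other library, and the remaining distances are 37.8 to 51.0.

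The heat map of distances shows that with CONV-WT 3 left aside the groups were separated by little more than the libraries within them. The median over genes of the SD of log2 values was 0.130 among COLONIZED-WT libraries, 0.302 among the CONV-WT libraries and 0.114 between CONV-WT 1 and 2. All 12 epithelial identity genes were detected, and Cdh1, which encodes E-cadherin, ranged from 7084 to 26986 normalized counts. Krt8, an epithelial keratin, ranged from 39047 to 61693. The summed immune list was 245 normalized counts in CONV-WT 3 and 225 to 521 elsewhere, while the mesenchymal and muscle list summed to 2716 in CONV-WT 3 against 842 to 1457 elsewhere. The part of these cells in any result was not tested. Y-linked genes were expressed in COLONIZED-WT 1, COLONIZED-WT 3 and CONV-WT 1.

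In the DESeq2 Wald test on these 6 libraries, 6 genes were higher in CONV-WT (0.0407% of the 14749 tested) and 10 were lower (0.0678%) at a Benjamini-Hochberg adjusted p under 0.01. These 16 genes are the base of the account that follows. At an unadjusted p under 0.05, 648 genes were higher (4.39%) and 586 lower (3.97%), and the groups did not overlap with CONV-WT higher for 1152 genes (7.81%) and with CONV-WT lower for 1225 (8.31%). The edgeR quasi-likelihood test called 0 genes and limma-voom with sample weights called 0 genes at the same threshold, with 899 and 2341 genes at an unadjusted p under 0.05. The lowest adjusted p that limma gave to any of the 16 was 0.0674, and edgeR gave all of them 0.685, so the calls depend on the tool. When each library was left out in turn, 12 of the 16 were called in at most 2 of the 6 fits, and without COLONIZED-WT 2 only 5033404E19Rik was called.

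More genes could be bounded than called different. For 7350 of 11522 genes with a value (63.8%), the DESeq2 test against a 2-fold threshold placed the difference between CONV-WT and COLONIZED-WT within 2-fold in either direction. They included 73 of 75 cytosolic ribosomal protein genes, 71 of 73 nuclear genes of oxidative phosphorylation and 36 of 41 proliferation genes. Other lists had smaller shares within 2-fold, with 187 of 397 goblet signature genes, 172 of 425 enterocyte signature genes, 4 of 32 ER chaperone and degradation genes, 2 of 15 mucus layer products and 1 of 26 tuft cell identity genes. Ern2 itself was among the genes placed within 2-fold, at 2835, 2556 and 2441 normalized counts in COLONIZED-WT against 3231, 3223 and 2224 in CONV-WT. Its log2 difference was 0.15 (95% interval −0.26 to 0.56), and the adjusted p of the 2-fold test in DESeq2 was 6.17e-05. Xbp1, the transcription factor whose mRNA the IRE1 family splices, had a log2 difference of −0.10 (95% interval −0.71 to 0.51) and an adjusted p of 0.0036 in the same DESeq2 test. Counts per gene do not separate spliced from unspliced Xbp1 mRNA, so splicing was not measured here. With log2 library total as a covariate the log2 difference of Xbp1 was 0.56 (DESeq2 adjusted p = 0.008). That fit called 757 genes, and since depths did not overlap between the groups it cannot tell depth and group apart. Atoh1, which commits crypt cells to the secretory lineages, was bounded likewise (0.15, 95% interval −0.25 to 0.56, DESeq2 adjusted p = 5.27e-05). Ern1, the ubiquitous relative of Ern2, was not bounded, with a 95% interval of −1.30 to 0.39 around −0.46.

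The largest falls among the 16 genes were in a transcribed pseudogene, an ion channel, a protein cross-linking enzyme and a cytokine receptor. 5033404E19Rik, annotated as a transcribed pseudogene (chr1:185497306-185498014, GRCm38, as for all coordinates here), had 168, 202 and 143 normalized counts in COLONIZED-WT against 39.3, 22.6 and 13.6 in CONV-WT. Every CONV-WT library was below every COLONIZED-WT library, the mean was 6.53-fold higher in COLONIZED-WT on the fitted scale, and the log2 difference was −2.71 ± 0.39 (SE, DESeq2 adjusted p = 5.22e-08). It was the 1 gene called in all 6 fits that left out a library. Trpv3, a calcium-permeable channel known from keratinocytes (chr11:73267489-73300368), had 36.0, 80.2 and 39.1 normalized counts in COLONIZED-WT against 6.88, 4.11 and 13.6 in CONV-WT. COLONIZED-WT 2 was the highest, the groups were apart, and the log2 difference was −2.76 ± 0.62 (SE, DESeq2 adjusted p = 0.00837). Lifr, the receptor of leukemia inhibitory factor (chr15:7090610-7197489), had 53.2, 115 and 62.4 normalized counts in COLONIZED-WT against 21.6, 13.3 and 17.5 in CONV-WT. It too was highest in COLONIZED-WT 2, with a log2 difference of −2.14 ± 0.47 (SE, DESeq2 adjusted p = 0.00714).

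Tgm3, a transglutaminase that cross-links proteins (chr2:129987794-130050399), had 3499, 9636 and 3069.6 normalized counts in COLONIZED-WT against 1303, 844 and 383 in CONV-WT. The groups were apart but COLONIZED-WT 2 was far above the other libraries, and the log2 difference was −2.68 ± 0.58 (SE, DESeq2 adjusted p = 0.00557). Without COLONIZED-WT 2 the log2 difference of Tgm3 was −1.96 with a DESeq2 adjusted p of 0.316, and without CONV-WT 3 it was −2.33 with 0.0304. Tgm3 was the 1 gene of the 16 that was no longer called without CONV-WT 3, where the other 15 were called in the same direction.

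A peptidase, a lipid synthesis enzyme and a transporter fell as well. Naaladl1, a peptidase of the intestinal brush border (chr19:6105781-6115989), had 825, 1092 and 1078 normalized counts in COLONIZED-WT against 268, 463 and 348 in CONV-WT, a log2 difference of −1.47 ± 0.27 (SE, DESeq2 adjusted p = 0.000163). Dgat2, which catalyses the last step of triglyceride synthesis (chr7:99153663-99182713), had 568, 610.3 and 762 in COLONIZED-WT against 263, 313 and 369 in CONV-WT, a log2 difference of −1.04 ± 0.22 (DESeq2 adjusted p = 0.00322). Slco2b1, an organic anion transporter (chr7:99657804-99711340), had 406, 425 and 577 in COLONIZED-WT against 220.2, 208 and 243 in CONV-WT, a log2 difference of −1.07 ± 0.22 (DESeq2 adjusted p = 0.00186). In all 3 genes no CONV-WT library reached the lowest COLONIZED-WT value.

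The other 3 genes that fell were Zan, Dock6 and Grina. Zan, which encodes the mucin-like sperm protein zonadhesin (chr5:137378637-137477064), had 2898, 3040.5 and 2515 normalized counts in COLONIZED-WT against 1507, 1296 and 919.6 in CONV-WT (log2 −1.18 ± 0.23, DESeq2 adjusted p = 0.00121). Dock6, an exchange factor of the small GTPases RAC1 and CDC42 (chr9:21800180-21852718), had 518, 562 and 461 in COLONIZED-WT against 294, 271 and 255 in CONV-WT (log2 −0.91 ± 0.16, DESeq2 adjusted p = 0.000163). Grina, a membrane protein of the TMBIM family (chr15:76246717-76249909), had 1059, 1123 and 1145 in COLONIZED-WT against 699.9, 784 and 699.9 in CONV-WT (log2 −0.61 ± 0.12, DESeq2 adjusted p = 0.00186). Across the 10 genes that fell, COLONIZED-WT 2 held the highest value in 7.

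The largest rise among the 16 was in a Ly6 family gene. 2010109I03Rik, which RefSeq names Ly6m (chr15:74878336-74881704), had 24.7, 35.8 and 34.9 normalized counts in COLONIZED-WT against 164, 123 and 447 in CONV-WT. It was 7.66-fold higher in CONV-WT on the fitted scale (log2 2.94 ± 0.53, DESeq2 adjusted p = 0.000163). Without CONV-WT 3, its highest library, the log2 difference was 2.18 with a DESeq2 adjusted p of 1.73e-08. It lies among related Ly6 genes, and how reads shared between them were counted is not given in the sources used here.

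Capn9, a calcium-dependent protease of the digestive tract (chr8:124576062-124618731), had 650.2, 662 and 617 normalized counts in COLONIZED-WT against 1151, 1052 and 1649 in CONV-WT (log2 0.99 ± 0.22, DESeq2 adjusted p = 0.00922). Socs2, a feedback inhibitor of growth hormone and STAT5 signalling (chr10:95383903-95417321), had 536, 583 and 552 in COLONIZED-WT against 897, 979 and 1349 in CONV-WT (log2 0.95 ± 0.21, DESeq2 adjusted p = 0.00837). Both were highest in CONV-WT 3 and were still called without it, Capn9 at a log2 difference of 0.78 and Socs2 at 0.76. Neither was called without COLONIZED-WT 2, with DESeq2 adjusted p of 0.582 for Capn9 and 0.549 for Socs2. Fam221a, a gene whose role is little described (chr6:49366921-49389905), had 265, 209 and 221 in COLONIZED-WT against 433, 443 and 395 in CONV-WT (log2 0.87 ± 0.17, DESeq2 adjusted p = 0.00121). Syt7, a calcium sensor of vesicle release (chr19:10388802-10453181), had 1531, 1378 and 1415 in COLONIZED-WT against 1970.1, 2212 and 2139 in CONV-WT (log2 0.55 ± 0.12, DESeq2 adjusted p = 0.00639). Eif1a, a translation initiation factor, had 1039, 989 and 972 in COLONIZED-WT against 1339, 1389 and 1363 in CONV-WT (log2 0.45 ± 0.10, DESeq2 adjusted p = 0.00988). The libraries of each group lay close together for these last 3 genes. Grina, Syt7 and Eif1a were each both called different and placed within 2-fold, with DESeq2 adjusted p of the 2-fold test of 0.00139, 0.000187 and 1.53e-07.

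**Figure D2:**
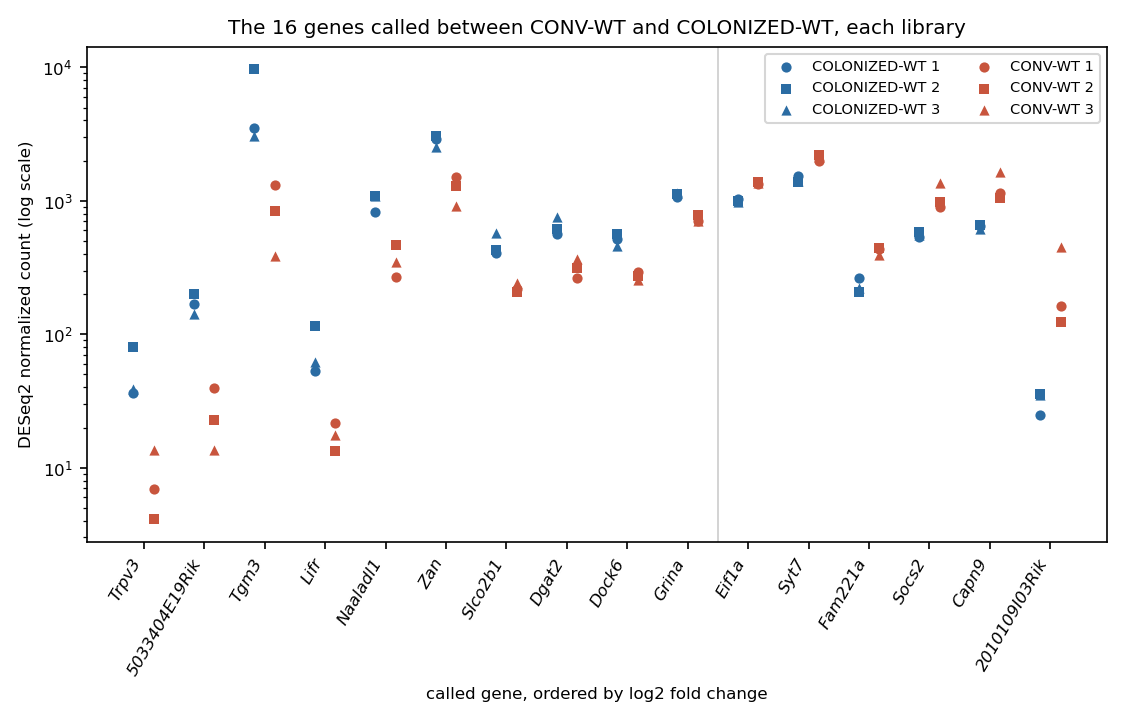
Normalized counts on a log axis in each of the 6 libraries for the 16 genes at a DESeq2 adjusted p under 0.01, one position per gene and one point per library. The 2 groups of points are apart for all 16 genes, and CONV-WT 3 is the CONV-WT library farthest from COLONIZED-WT for 8 of them.

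For 9 of the 16 genes in this plot the fitted difference was over 2-fold. The 95% intervals of Naaladl1, Zan, Slco2b1 and Dgat2 also held differences under 2-fold. The promoter sequences below belong to the pair of genes with the largest fold in each direction among the 6 called genes that have 1 listed start, and are shown so that the changed genes can be located. They are RefSeq windows on GRCm38.p6, 250 bases before to 50 after the transcription start, given 5′ to 3′ on the plus strand. The listed starts lie inside the spans given for these genes above, that of Tgm3 far from the first base and those of the other 3 nearer to it. They lie at chr11:73267270-73267569 (Trpv3), chr2:130012090-130012389 (Tgm3), chr8:124575861-124576160 (Capn9) and chr6:49367489-49367788 (Fam221a). The capitals show where a motif was found, with TATAAA as the TATA box motif, GGGCGG as the motif bound by Sp1-type factors and TTCNNNGAA as the motif of STAT factors, each searched on both strands.
Trpv3: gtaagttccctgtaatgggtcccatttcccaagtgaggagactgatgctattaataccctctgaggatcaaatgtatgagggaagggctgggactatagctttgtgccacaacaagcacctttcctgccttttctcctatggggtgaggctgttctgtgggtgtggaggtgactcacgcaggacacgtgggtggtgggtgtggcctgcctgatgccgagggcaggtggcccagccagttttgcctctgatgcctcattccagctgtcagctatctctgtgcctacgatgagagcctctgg
Tgm3: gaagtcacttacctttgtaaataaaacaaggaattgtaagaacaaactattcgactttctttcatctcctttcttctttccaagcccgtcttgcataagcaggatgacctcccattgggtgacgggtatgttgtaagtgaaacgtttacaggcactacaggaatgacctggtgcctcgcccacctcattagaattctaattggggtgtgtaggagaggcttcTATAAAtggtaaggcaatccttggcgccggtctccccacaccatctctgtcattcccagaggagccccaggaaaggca
Capn9: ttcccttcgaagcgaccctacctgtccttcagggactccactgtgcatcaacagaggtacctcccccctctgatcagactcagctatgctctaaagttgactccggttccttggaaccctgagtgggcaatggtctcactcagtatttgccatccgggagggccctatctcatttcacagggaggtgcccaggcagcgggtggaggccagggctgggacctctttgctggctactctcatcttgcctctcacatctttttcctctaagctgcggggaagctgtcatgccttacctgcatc
Fam221a: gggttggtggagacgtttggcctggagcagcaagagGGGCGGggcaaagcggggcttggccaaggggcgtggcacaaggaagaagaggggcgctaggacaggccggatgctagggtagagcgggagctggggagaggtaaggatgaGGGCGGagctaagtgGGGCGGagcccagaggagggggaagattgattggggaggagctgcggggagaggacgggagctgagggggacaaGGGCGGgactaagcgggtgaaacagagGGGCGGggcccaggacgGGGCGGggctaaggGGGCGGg
Tgm3 holds 1 TATAAA near this listed start and Fam221a holds 7 GGGCGG, while Trpv3 and Capn9 hold none of these letters in the window. TATAAA occurs in 13.6% of 32851 RefSeq windows of this length, GGGCGG in 35.7% and TTCNNNGAA in 8.3%. Of the 6 genes, 1 holds TATAAA, 2 hold GGGCGG and 0 hold TTCNNNGAA. A match is a description of the sequence.

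Among the next genes by p, none of which passed the threshold, those higher in CONV-WT included Zc3h12a, Nfkbiz and Gadd45g. Zc3h12a, which encodes the mRNA-degrading enzyme Regnase-1, had 523, 732 and 555 normalized counts in COLONIZED-WT against 1399, 998 and 1946 in CONV-WT (log2 1.26, DESeq2 adjusted p = 0.0194). Nfkbiz, which encodes the nuclear inhibitor IkB-zeta, had 502, 692 and 626 in COLONIZED-WT against 1292, 964 and 1709 in CONV-WT (log2 1.12, DESeq2 adjusted p = 0.0206). Both were highest in CONV-WT 3 and neither overlapped between groups. Gadd45g, a stress and growth arrest gene, had 340.5, 239 and 233 in COLONIZED-WT against 659, 592 and 445 in CONV-WT (log2 1.07, DESeq2 adjusted p = 0.0194). Without CONV-WT 3 all 3 were called, Zc3h12a at a log2 difference of 0.99, Nfkbiz at 0.90 and Gadd45g at 1.21.

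On the lower side Klb, the co-receptor beta-Klotho of endocrine FGFs, had 80.2, 152 and 85.6 normalized counts in COLONIZED-WT against 37.4, 25.7 and 11.7 in CONV-WT (log2 −2.04, DESeq2 adjusted p = 0.017). Cyp2d22, a cytochrome P450, had 154, 185 and 249 in COLONIZED-WT against 50.1, 83.2 and 89.4 in CONV-WT (log2 −1.41, DESeq2 adjusted p = 0.017). Art2a-ps, a pseudogene of the ADP-ribosyltransferase family, had 135, 118 and 138 in COLONIZED-WT against 21.6, 58.5 and 21.4 in CONV-WT (log2 −1.92, DESeq2 adjusted p = 0.0129). No CONV-WT library reached a COLONIZED-WT library in these 3 genes, and without CONV-WT 3 they were called at log2 differences of −1.74 (Klb), −1.55 (Cyp2d22) and −1.70 (Art2a-ps). The long noncoding RNA gene Gm15401 had 1476, 1501 and 1231 in COLONIZED-WT against 482, 341 and 801 in CONV-WT (log2 −1.38, DESeq2 adjusted p = 0.0218), and was called at −1.77 without CONV-WT 3.

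Goblet cell genes depended on whether CONV-WT 3 was included. Of 400 tested genes of the goblet cell signature used by the study, 2 rose (Capn9 and Syt7) and 0 fell in CONV-WT over all 6 libraries (0.0407% and 0.0678% over all genes), with a median log2 difference of 0.01 beside 0.02 over all genes tested. Without CONV-WT 3, 21 of 399 were higher in CONV-WT and 4 lower, beside 102 (0.822%) and 95 (0.766%) of 12404 genes, and the median was 0.15 beside 0.00021. For the same 5 libraries edgeR gave 0 calls beside 2263 genes whose unadjusted p was under 0.05, so every call named below as made without CONV-WT 3 is a DESeq2 call. CONV-WT 3 lay on the CONV-WT side of the COLONIZED-WT libraries for 6 of those 21 genes. The signature took 8.80%, 8.87% and 9.48% of the counts in COLONIZED-WT, 11.4% and 10.6% in CONV-WT 1 and 2, and 4.86% in CONV-WT 3. The study took this and the other cell type signatures from an outside data set, a reference that it cites elsewhere for the small intestine.

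Among the mucus components Muc2, Fcgbp and Clca3 showed this split, while Tff3 and Zg16 did not. Muc2, the gel-forming mucin, had 143837, 144269 and 176760.0 normalized counts in COLONIZED-WT against 232829, 202001 and 26843 in CONV-WT. CONV-WT 1 and 2 were above every COLONIZED-WT library and CONV-WT 3 was below every one. The log2 difference was −0.01 (95% interval −1.30 to 1.28, DESeq2 adjusted p = 0.998) with CONV-WT 3 and 0.49 (DESeq2 adjusted p = 0.0197) without it. With log2 library total as a covariate the log2 difference of Muc2 was 1.59 (DESeq2 adjusted p = 1.32e-07), in a fit that cannot tell depth and group apart. Fcgbp, the mucus-binding partner of MUC2, had 52949, 68765 and 76669.5 in COLONIZED-WT against 133972, 109566 and 11762 in CONV-WT. Its log2 difference was 0.36 (95% interval −1.03 to 1.76) with CONV-WT 3 and 0.88 (DESeq2 adjusted p = 0.00015) without it. Clca3, the mucus protease that RefSeq names Clca1, had 72541, 91048 and 111416 in COLONIZED-WT against 176077, 143017 and 19113 in CONV-WT. Its log2 difference was 0.30 with CONV-WT 3 and 0.80 (DESeq2 adjusted p = 0.00252) without it.

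Of 35 tested antimicrobial and lectin genes, 0 were called, 2 were higher and 3 lower at an unadjusted p under 0.05 (4.39% and 3.97% over all genes), and the median log2 difference was 0.03. Without CONV-WT 3, 2 of 28 were called higher and 1 lower (0.822% and 0.766% over all genes), with a median of −0.02. Secreted defence genes among the goblet products, Ang4, Itln1 and Retnlb, were higher in CONV-WT 1 and 2 than in every COLONIZED-WT library. Ang4, an antibacterial ribonuclease, had 5248, 3414 and 7609 normalized counts in COLONIZED-WT against 25464, 18032 and 8228 in CONV-WT. The groups did not overlap, but the log2 difference of 1.67 had a DESeq2 adjusted p of 0.071, and without CONV-WT 3 it was 2.01 with 0.00147. Itln1, the lectin intelectin-1, had 306, 156 and 301 in COLONIZED-WT against 1698, 839 and 359.7 in CONV-WT. It too did not overlap (log2 1.93, DESeq2 adjusted p = 0.0909), and without CONV-WT 3 the log2 difference was 2.32 (DESeq2 adjusted p = 0.00185). Retnlb, a bactericidal protein of goblet cells, had 9883, 4714 and 8616 in COLONIZED-WT against 35889, 26351 and 7988 in CONV-WT. CONV-WT 3 lay within the COLONIZED-WT range, and the log2 difference was 1.60 (DESeq2 adjusted p = 0.21) with it and 2.01 (DESeq2 adjusted p = 0.00025) without it. Ang4 and Itln1 belong to families with near-identical members, so their counts may hold reads of relatives.

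Other secreted products were also highest in CONV-WT 1 and 2. Clps, which encodes colipase, had 420.0, 298 and 407 normalized counts in COLONIZED-WT against 1593, 1071 and 451 in CONV-WT, and without CONV-WT 3 the log2 difference was 1.83 (DESeq2 adjusted p = 1.8e-12) beside 1.47 (0.124) with it. Clps is also on the pancreatic acinar list, used to look for other cell types. That list summed to 3942, 3766 and 3160 in COLONIZED-WT against 6131, 3770 and 1693 in CONV-WT. The part of such cells was not tested. Spink4, a protease inhibitor of goblet cells, had 21347, 17019 and 23233 in COLONIZED-WT against 43029, 48950.0 and 15701 in CONV-WT, a log2 difference of 0.81 (DESeq2 adjusted p = 0.62) with CONV-WT 3 and 1.17 (6.84e-10) without it. Mptx1, a secreted pentraxin, had 73561, 97122 and 99515 in COLONIZED-WT against 213497, 194279 and 16418 in CONV-WT, a log2 difference of 0.65 (DESeq2 adjusted p = 0.875) with CONV-WT 3 and 1.18 (1.23e-10) without it. Of 16 tested mucus layer products, 0 rose and 1 (Tgm3, above) fell over the 6 libraries, beside 0.0407% and 0.0678% over all genes, and 6 were called higher and 0 lower without CONV-WT 3, beside 0.822% and 0.766%. In that fit 9 were higher and 4 lower at an unadjusted p under 0.05, beside 1016 and 1125 of all 12404 genes. Their median log2 difference was 0.20 with CONV-WT 3 and 0.52 without it.

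**Figure D3:**
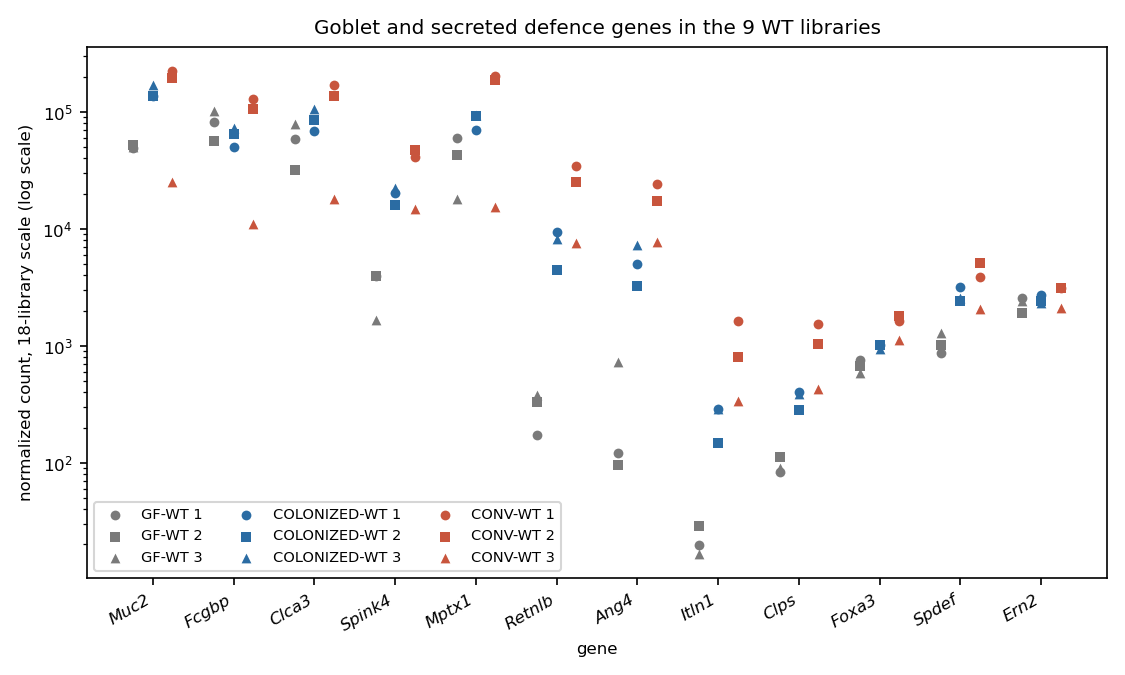
Normalized counts on a log axis for 12 goblet cell and secreted genes in the 3 GF-WT, 3 COLONIZED-WT and 3 CONV-WT libraries, scaled over all 18 libraries, with one point per library. CONV-WT 3 falls below CONV-WT 1 and 2 for genes such as Muc2 and Retnlb, and for Retnlb all GF-WT points lie below all COLONIZED-WT points.

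The plot of goblet cell genes also places the 2 groups against GF-WT, from which COLONIZED-WT mice started. On the scale of all 18 libraries, Retnlb had mean normalized counts of 292 in GF-WT, 7357 in COLONIZED-WT and 22426 in CONV-WT, so COLONIZED-WT lay between the others. Itln1 had means of 21.8 in GF-WT, 242 in COLONIZED-WT and 924 in CONV-WT. Muc2 had 49017, 51960 and 50429 in GF-WT, below every COLONIZED-WT library, with group means of 50469 in GF-WT, 147217 in COLONIZED-WT and 147625 in CONV-WT. That CONV-WT mean joins CONV-WT 1 and 2, above every COLONIZED-WT library, with CONV-WT 3, below every GF-WT library.

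Transcription factors of the secretory lineage had smaller log2 differences than Retnlb, Ang4 or Itln1. Foxa3, a goblet cell factor, had 1076, 1087 and 981 normalized counts in COLONIZED-WT against 1697, 1873 and 1198 in CONV-WT, without overlap (log2 0.60, DESeq2 adjusted p = 0.257). Without CONV-WT 3 its log2 difference was 0.77 (DESeq2 adjusted p = 5.61e-07). Spdef, which drives goblet cell maturation, had 3328, 2540.0 and 2696 in COLONIZED-WT against 4038, 5332 and 2212 in CONV-WT, a log2 difference of 0.44 with CONV-WT 3 and 0.72 (DESeq2 adjusted p = 0.00478) without it. Bhlha15, which encodes the secretory factor MIST1, had 318, 237 and 216 in COLONIZED-WT against 501, 455 and 323 in CONV-WT, a log2 difference of 0.73 (DESeq2 adjusted p = 0.265) with CONV-WT 3 and 0.90 (0.00271) without it. Of 12 secretory transcription factors, 0 were called in either direction over the 6 libraries and 3, these same genes, were called higher without CONV-WT 3, beside 0.822% over all genes.

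Some secreted defence genes lay the other way or varied within groups. Lypd8, which keeps flagellated bacteria from the colonic epithelium, had 42195, 86345 and 66578 normalized counts in COLONIZED-WT against 30917, 30999.8 and 25865 in CONV-WT. It did not pass the threshold (log2 −1.15, DESeq2 adjusted p = 0.0297), though the groups did not overlap, and without CONV-WT 3 the log2 difference was −1.07 (DESeq2 adjusted p = 0.00183). Reg3g, a bactericidal lectin, had 1909, 916 and 866 in COLONIZED-WT against 158, 889 and 419.9 in CONV-WT (log2 −1.33, DESeq2 adjusted p = 0.52). Reg3b, its relative, had 2710.4, 2422 and 2012 in COLONIZED-WT against 220.2, 2010.3 and 1399.8 in CONV-WT (log2 −0.98). Zg16, a lectin that binds Gram-positive bacteria, had 3468, 20316 and 10844 in COLONIZED-WT against 3012, 3192 and 8107 in CONV-WT, with a 95% interval of −2.55 to −0.00 around a log2 difference of −1.27 (DESeq2 adjusted p = 0.595), and −1.89 without CONV-WT 3 (0.165). Tff3, a trefoil peptide of goblet cells, had 2729, 6886 and 5534 in COLONIZED-WT against 2625, 2804 and 6235 in CONV-WT (log2 −0.38, DESeq2 adjusted p = 0.889), and −0.89 (0.29) without CONV-WT 3. Saa1, an acute-phase protein induced by microbes, had 311, 801 and 575 in COLONIZED-WT against 286, 620.1 and 888 in CONV-WT (log2 0.09).

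Enterocyte signature genes passed an unadjusted p of 0.05 more often on the lower than on the higher side. Of 457 tested genes of the enterocyte signature, 0 rose and 2 fell (Naaladl1 and Dgat2) beside 0.0407% and 0.0678% over all genes, 7 were higher and 68 lower at an unadjusted p under 0.05 (4.39% and 3.97% over all genes), and the median log2 difference was −0.14 beside 0.02 over all genes. Without CONV-WT 3, 1 of 438 was called higher and 24 lower, beside 0.822% and 0.766% of all genes, with a median of −0.29. The summed signature took 4.65%, 5.23% and 5.53% of the counts in COLONIZED-WT, 4.13% and 4.26% in CONV-WT 1 and 2, and 5.71% in CONV-WT 3, the highest of the 6. CONV-WT 3 lay on the CONV-WT side for 9 of those 24. Hsd11b2, which inactivates glucocorticoids, had 4010.1, 9106 and 5972 normalized counts in COLONIZED-WT against 2569, 2394 and 1139 in CONV-WT (log2 −1.64, DESeq2 adjusted p = 0.0297). Fxyd4, a regulator of the sodium pump, had 17.2, 111 and 25.8 in COLONIZED-WT against 3.93, 4.11 and 3.89 in CONV-WT (log2 −3.68, DESeq2 adjusted p = 0.0194), and without CONV-WT 3 it was called at −3.66 (0.00448). Both genes are known from mineralocorticoid-responsive epithelium, both were highest in COLONIZED-WT 2, and neither overlapped between groups.

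Of 46 tested colonocyte transport and surface genes, 0 were higher and 9 lower at an unadjusted p under 0.05 (4.39% and 3.97% over all genes), 8 did not overlap with CONV-WT lower (8.31% over all genes), 0 were called and the median log2 difference was −0.31. Aqp8 and Slc26a3, markers of surface colonocytes, overlapped between the groups. Aqp8, a water channel, had 97.5, 339 and 1759 normalized counts in COLONIZED-WT against 138, 313 and 1481 in CONV-WT, with a 95% interval of −2.81 to 2.44. Its spread within each group exceeded 10-fold. Slc26a3, the chloride exchanger, had 1594, 2641 and 6281 in COLONIZED-WT against 2494, 2266 and 4046 in CONV-WT (log2 −0.26). Cpt1a, the entry step of mitochondrial fatty acid oxidation, had 6779, 7999 and 8618 in COLONIZED-WT against 4549, 5523 and 2798 in CONV-WT (log2 −0.86, DESeq2 adjusted p = 0.202), and −0.63 (0.00363) without CONV-WT 3.

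Of 87 tested xenobiotic metabolism genes, 1 was higher and 15 lower at an unadjusted p under 0.05 (4.39% and 3.97% over all genes), with a median log2 difference of −0.34 and 0 genes called in either direction. Without CONV-WT 3, 0 of 79 were called higher and 5 lower, the latter beside 0.766% of all genes, with a median of −0.36. Cyp27a1, a sterol hydroxylase, had 211, 238 and 263 normalized counts in COLONIZED-WT against 53.1, 126 and 128 in CONV-WT (log2 −1.22, and −1.40 with a DESeq2 adjusted p of 0.0033 without CONV-WT 3). Of 27 protease and brush border genes, 0 rose and 1 (Naaladl1, above) fell (0.0678% over all genes), with a median of −0.57. At an unadjusted p under 0.05, 0 of them were higher and 5 lower (3.97% over all genes), and 1 was called lower without CONV-WT 3 (0.766% over all genes). Myo7a, an unconventional myosin, had 393, 358 and 377 in COLONIZED-WT against 184, 237 and 247 in CONV-WT (log2 −0.77, DESeq2 adjusted p = 0.0194), and −0.83 (0.00115) without CONV-WT 3.

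Antigen presentation genes had negative median differences, with 0 called over the 6 libraries. Of 20 tested MHC class I genes, 0 were higher and 6 lower at an unadjusted p under 0.05 (3.97% lower over all genes), and the median log2 difference was −0.68 with CONV-WT 3 and −0.70 without it, where 2 of 18 were called lower (0.766% over all genes). B2m, the light chain of class I molecules, had 3532, 8096 and 4948 normalized counts in COLONIZED-WT against 2974, 3449.8 and 2201 in CONV-WT (log2 −0.94). H2-T23, the class Ib molecule Qa-1, had 1702, 2603 and 2163 in COLONIZED-WT against 1335, 1411 and 834 in CONV-WT (log2 −0.85, DESeq2 adjusted p = 0.194). Reads of H2 genes may be shared among close copies. The summed level of MHC class II genes was highest in COLONIZED-WT 2, at 6897 normalized counts, against 1769 and 2647 in the other COLONIZED-WT libraries and 1464, 1231 and 1151 in CONV-WT. Ctss, a protease that processes class II molecules, had 1552, 2814 and 2448 in COLONIZED-WT against 1390.1, 1058 and 1011 in CONV-WT (log2 −0.98, DESeq2 adjusted p = 0.0925). The 46 interferon-stimulated genes had a median of −0.16 with CONV-WT 3 and −0.62 without it, and 0 were called over the 6 libraries. Without CONV-WT 3, 1 of 41 was called lower (0.766% over all genes), and 1 was higher and 13 lower at an unadjusted p under 0.05. Over all 12404 genes, 1016 were higher and 1125 lower at that level. The called gene was Irf7, an interferon regulatory factor, whose log2 difference was 1.22 (DESeq2 adjusted p = 0.777) with CONV-WT 3 and −0.98 (0.00824) without it.

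Enteroendocrine hormones were lower at an unadjusted p under 0.05 in 7 of 28 tested genes (3.97% over all genes) and higher in 0, with 0 called and a median log2 difference of −0.44. The broader enteroendocrine signature of the study had 10 of 157 lower, 4 higher, 0 called and a median of −0.05. Sst, somatostatin, had 98.2, 169.7 and 155 normalized counts in COLONIZED-WT against 43.3, 71.9 and 44.7 in CONV-WT (log2 −1.39, DESeq2 adjusted p = 0.0297). Gcg, the precursor of GLP-1 and of enteroglucagon, had 316, 883 and 845 in COLONIZED-WT against 306, 248 and 245 in CONV-WT (log2 −1.35, DESeq2 adjusted p = 0.117). Nts, neurotensin, had 36.7, 91.9 and 109 in COLONIZED-WT against 6.88, 15.4 and 101 in CONV-WT, a log2 difference of −0.97 (DESeq2 adjusted p = 0.836) with CONV-WT 3 and −2.83 (0.00036) without it. Slc6a4, the serotonin reuptake transporter of the epithelium, had 214, 349.5 and 229 in COLONIZED-WT against 136, 102 and 68.0 in CONV-WT (log2 −1.36, DESeq2 adjusted p = 0.0276), and −1.15 (0.00423) without CONV-WT 3.

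Of 484 tested tuft cell signature genes, 1 rose (Fam221a) and 0 fell (0.0407% and 0.0678% over all genes), with a median log2 difference of 0.10 with CONV-WT 3 and 0.03 without it, and without CONV-WT 3 13 of 465 were called higher and 4 lower, beside 0.822% and 0.766% of all genes. The 29 tuft cell identity genes had a median log2 difference of 0.35 with CONV-WT 3 and 0.62 without it, with 0 called and 0 at an unadjusted p under 0.05 in either direction over the 6 libraries. Without CONV-WT 3, 13 of 27 were higher and 0 lower at an unadjusted p under 0.05, beside 1016 and 1125 of all 12404 genes. In that fit 2 were called higher (0.822% over all genes), Rgs13 and Cd24a (log2 0.37 with CONV-WT 3 and 0.68 without it for Cd24a). Rgs13, a regulator of G protein signalling found in tuft cells, had 172, 132 and 116 normalized counts in COLONIZED-WT against 312, 462 and 75.8 in CONV-WT, a log2 difference of 1.02 (DESeq2 adjusted p = 0.669) with CONV-WT 3 and 1.47 (9.42e-06) without it. Dclk1, the usual tuft cell marker, had 1456, 1031 and 816 in COLONIZED-WT against 1493, 1678 and 572 in CONV-WT (log2 0.18).

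**Figure D4:**
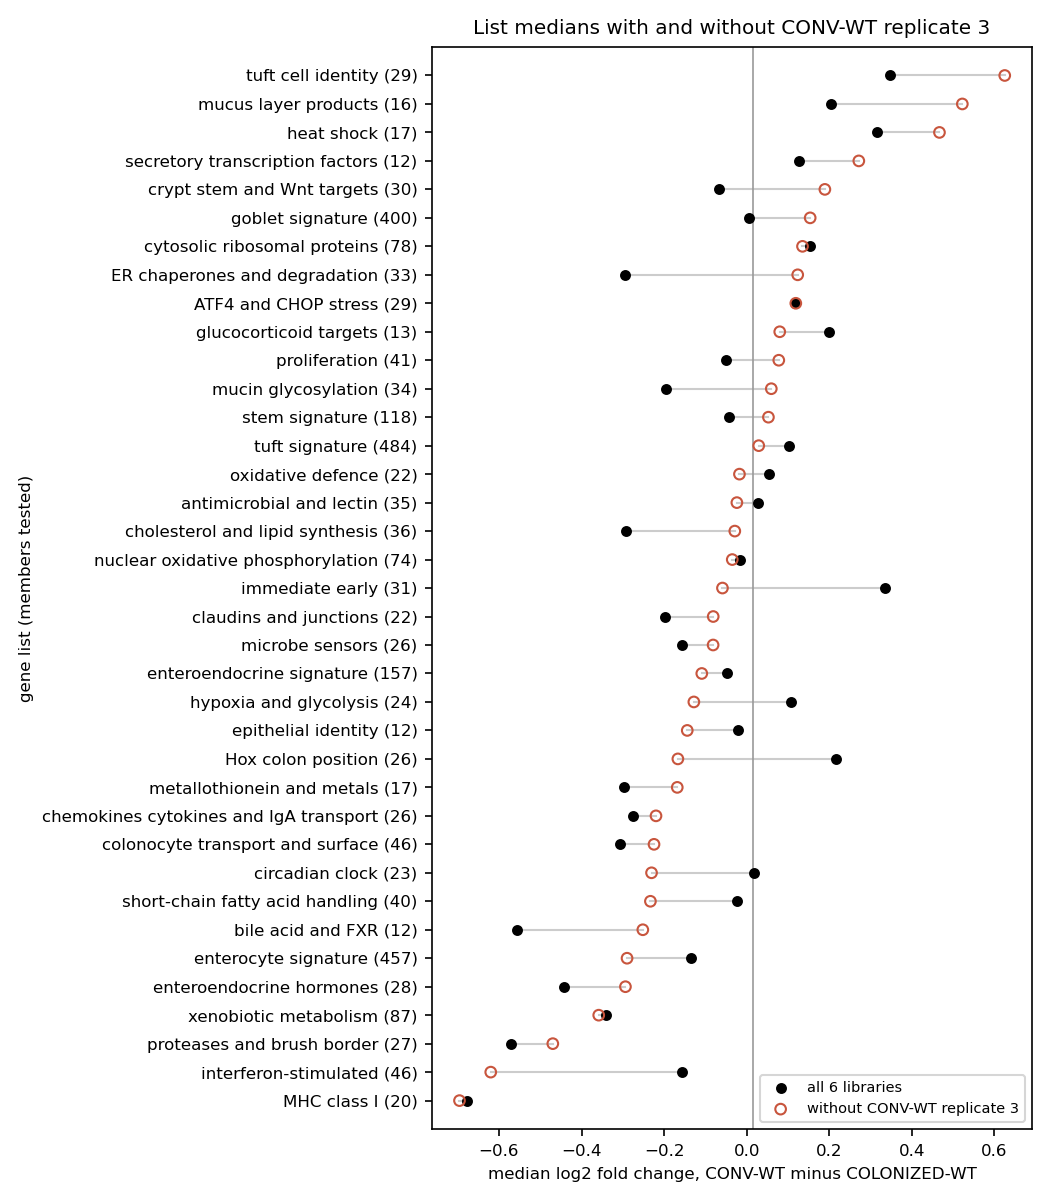
Median log2 difference (CONV-WT minus COLONIZED-WT) of each gene list, with one point for the fit of all 6 libraries and one for the fit without CONV-WT 3, and a vertical line at the median of all genes tested. MHC class I genes lie at −0.68 and −0.70, while the mucus layer products lie at 0.20 and 0.52.

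The plot of list medians shows which groups held their place without CONV-WT 3. Of 41 proliferation genes, 0 were called over the 6 libraries (0.0407% higher and 0.0678% lower over all genes). Without CONV-WT 3, 1 was called higher (0.822% over all genes), Ccne2 (log2 0.81 with that library and 0.96 without). Mki67, a marker of dividing cells, had 7218, 6592 and 7347 normalized counts in COLONIZED-WT against 8032, 6891 and 2159.9 in CONV-WT (log2 −0.31, 95% interval −1.22 to 0.60). With log2 library total as a covariate the log2 difference of Mki67 was 0.75 (DESeq2 adjusted p = 0.0023), in a fit that cannot tell depth and group apart. Lgr5, the stem cell marker, had 329, 303 and 375 in COLONIZED-WT against 313, 440.5 and 189 in CONV-WT and was placed within 2-fold (DESeq2 adjusted p = 0.00586). Of 33 ER chaperone and degradation genes, 0 were called and 0 passed an unadjusted p of 0.05 in either direction over the 6 libraries. Their medians were −0.29 with CONV-WT 3 and 0.12 without it. In the fit without CONV-WT 3, 1 was called higher (0.822% over all genes), Dnajc10 (log2 0.26 with that library and 0.71 without). In that fit 5 were higher and 0 lower at an unadjusted p under 0.05, beside 1016 and 1125 of all 12404 genes. Of 29 ATF4 and CHOP stress genes, 4 were higher (4.39% over all genes) and 0 lower at an unadjusted p under 0.05, with 0 called. Without CONV-WT 3, 2 of 28 were called higher (0.822% over all genes), Slc7a11 (log2 0.86 with that library and 1.29 without) and Pycr1 (0.72 and 0.98). Atf4, which drives the integrated stress response, had 3058, 2893 and 2755 in COLONIZED-WT against 3653, 3611 and 3929 in CONV-WT (log2 0.36, DESeq2 adjusted p = 0.104). Fos, an immediate early gene, had 624, 606 and 677 in COLONIZED-WT against 854, 414 and 2088 in CONV-WT, and its log2 difference of 0.81 became −0.00 without CONV-WT 3. The mesenchymal and muscle list had a median of 2.55 over 16 genes with CONV-WT 3 and of −0.50 over the 3 still tested without it. Clock genes Dbp (log2 −0.09) and Nr1d1 (log2 0.65) overlapped between groups.

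GF-WT libraries allowed each of the 16 genes to be placed among 3 microbial states. COLONIZED-WT had the middle group mean for 10 of the 16, GF-WT for 5 and CONV-WT for 1, while over all 14749 genes the shares were 48.6%, 18.9% and 32.5%. This is a description, since the 16 were chosen on the difference between COLONIZED-WT and CONV-WT. Tgm3 had 34712, 29463 and 23353 normalized counts in GF-WT on the 18-library scale, and group means of 29176 in GF-WT, 5117 in COLONIZED-WT and 807 in CONV-WT. Trpv3 had 209, 142 and 156 in GF-WT, and means of 169 in GF-WT, 49.1 in COLONIZED-WT and 7.78 in CONV-WT. Lifr had 648, 516 and 190.2 in GF-WT, with means of 452 in GF-WT, 73.0 in COLONIZED-WT and 16.7 in CONV-WT. For these 3 genes every GF-WT library was above every COLONIZED-WT library, which was above every CONV-WT library. Fam221a ran the other way, with 93.0, 71.5 and 79.1 in GF-WT and means of 81.2, 220.1 and 404 in GF-WT, COLONIZED-WT and CONV-WT. Ly6m was the exception, where 1 GF-WT library at 719 exceeded all 3 CONV-WT libraries and the others had 34.6 and 91.8.

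Of the 197 genes called without CONV-WT 3, with the CONV-WT mean taken over libraries 1 and 2, COLONIZED-WT had the middle mean for 79 of the 102 higher and 63 of the 95 lower genes. On that basis the share over all 12404 genes was 55.5%, and the counts are a description, since these genes too were chosen on the difference between the groups. Within these, 17 of the 21 goblet signature genes called higher and 17 of the 24 enterocyte signature genes called lower had COLONIZED-WT in the middle. Fxyd4 had 1688, 1051 and 262 normalized counts in GF-WT, above the means of 48.4 in COLONIZED-WT and 3.79 in CONV-WT. Lypd8 had 94959, 106786 and 138151 in GF-WT, above all COLONIZED-WT and CONV-WT libraries.

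The same contrast in the libraries labelled Ern2-/- was compared with that in WT. In those 6 libraries Ern2 was not at 0: it had 2567, 1325 and 1885 normalized counts in COLONIZED-Ern2-/- and 998, 1622 and 1487 in CONV-Ern2-/- on the 18-library scale, beside 2089 to 3100.3 in WT CONV libraries. Which part of Ern2 the deletion removes was not analysed here, so these counts do not check the labels. In the DESeq2 test 636 genes were higher (4.86%) and 489 lower (3.73%) in CONV-Ern2-/- among 13098 genes. In that DESeq2 test goblet cell signature genes were higher for 10 and lower for 87, with a median log2 difference of −0.42. Enterocyte signature genes were higher for 98 and lower for 9, with a median of 0.39. The edgeR test called 35 genes higher and 0 lower in the same libraries, so the lower calls depend on the tool. At an unadjusted p under 0.05 edgeR had 2057 genes higher and 1838 lower.

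Of the 16 genes called in WT, 10 had the same sign in the libraries labelled Ern2-/- and 2 of these were called, Ly6m (log2 4.21, DESeq2 adjusted p = 0.000936) and Lifr (log2 −2.29, DESeq2 adjusted p = 0.00263). The interaction of genotype label and microbial state was called for 40 of 12311 genes (0.325%), and for 0 of the 16 (9 at an unadjusted p under 0.05, beside 1958 over all genes). The 16 were chosen on the WT difference, which is part of the interaction. The lowest adjusted p among the 16 was that of Dgat2, at 0.0166 for an interaction of 1.41 on the log2 scale. Dgat2 had a log2 difference of −1.04 in WT and 0.37 in the libraries labelled Ern2-/-. The number of interactions called over all genes rests on single libraries. It was 1231 without CONV-WT 3, 4 without CONV-WT 1 or CONV-WT 2, 2 without COLONIZED-WT 2, and 0 without COLONIZED-WT 3 or without COLONIZED-Ern2-/- 1.

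In the plot of both genotype labels, 5033404E19Rik lay at −2.71 in WT and −3.45 in the libraries labelled Ern2-/- (DESeq2 adjusted p = 0.0104). Dock6 lay at −0.91 in WT and −0.05 in those labelled Ern2-/-. Naaladl1 lay at −1.47 and −0.28 (DESeq2 adjusted p = 0.718), and Zan at −1.18 and −0.51. Capn9 lay at 0.99 in WT and −0.41 in those labelled Ern2-/-, and the difference between the labels was not called for any of these.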

How the data were processed

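RNA-Seq was made from colon crypt epithelial cells with a stranded mRNA kit, and the authors sequenced 75-cycle single-end reads. The deposited table holds whole-number read counts per gene, which the authors made with the VIPER pipeline, and the processing notes name STAR, DESeq2 and the build mm10. Tool versions, the gene models and whether strand was used in counting are not given in the sources used here, so reads of overlapping or antisense genes cannot be told apart. Of 24047 genes, 17017 had a count in the 6 libraries and 14749 had an adjusted p. Library totals ran from 8198204 to 20430725 counts, and low genes of CONV-WT 3 are the least precise. In the gene column, 27 symbols had been turned into dates and 2 occurred more than once. No column lacked a sample.

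The main test was DESeq2 1.42.0 (R 4.3.3) on the 6 libraries, with a two-sided Wald test, Benjamini-Hochberg adjustment and a threshold of 0.01. A gene passing it is called, and log2 differences are CONV minus COLONIZED. Equivalence was tested in DESeq2 against a log2 threshold of 1. edgeR 4.0.16 and limma 3.58.1 were alternatives, beside other scalings, filters, library sets and covariates (library total, sex from Y-linked genes, replicate number), thinning to the smallest total and leaving out each library. The same contrast was fitted in the libraries labelled Ern2-/-, and its interaction with the genotype label over 12 libraries. The code was tested on simulated data.

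Named genes were those called, 10 in each direction with the smallest p among uncalled genes with a mean of at least 50 normalized counts and no overlap, the called, 3 smallest-p and most abundant members of each list described, a fixed set of markers, and genes called in every leave-one-out fit. Malat1, Spink4, Irf7, Nts, Slc6a4, Dclk1, Dnajc10 and Slc7a11 were named outside this rule, after their values were seen. The comparison and the 48 lists were chosen with earlier results of these data known.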

Additional observations from a re-analysis of the deposited data

Results flagged for a closer look

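For 5 named genes the difference between CONV and COLONIZED itself differed between WT and the libraries labelled Ern2-/-, by the interaction term of DESeq2 over 12 libraries (positive values mean a higher CONV level, relative to COLONIZED, in those labelled Ern2-/-). Saa1, an acute-phase protein, had an interaction of 2.68 ± 0.58 on the log2 scale (SE, adjusted p = 0.00451), with a log2 difference of 0.09 in WT and 2.77 in those labelled Ern2-/-. Gfi1, a transcription factor of secretory progenitors, had −2.02 ± 0.46 (SE, DESeq2 adjusted p = 0.00638), with 0.73 in WT and −1.28 in those labelled Ern2-/-. Cdhr5, a cadherin of brush border microvilli, had 1.39 ± 0.33 (SE, DESeq2 adjusted p = 0.00981), with −0.62 and 0.77.

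Rian, a noncoding RNA of the imprinted Dlk1-Dio3 cluster, had −4.56 ± 0.99 (SE, DESeq2 adjusted p = 0.00451), with 1.80 in WT and −2.76 in those labelled Ern2-/-. Its WT values were 96.7, 138 and 206 normalized counts in COLONIZED-WT against 545, 869.6 and 121 in CONV-WT, so CONV-WT 3 overlapped COLONIZED-WT. Its WT difference was not called with CONV-WT 3 (DESeq2 adjusted p = 0.256) and was called at 2.27 (1.23e-09) without it. Mfsd7a, a membrane transporter of the major facilitator family, had 1.56 ± 0.37 (SE, DESeq2 adjusted p = 0.00782), with −0.93 in WT and 0.64 in those labelled Ern2-/-. The number of interactions called rests on single libraries, as given among the processing alternatives, and edgeR called 0.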

How the results depend on the processing

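The 16 calls of CONV-WT against COLONIZED-WT became 0 in edgeR, 0 in limma-voom, 0 in a DESeq2 fit of all 18 libraries, 9 after thinning to the smallest total, 71 at an adjusted p under 0.05 and 757 with log2 library total as a covariate, of which 8 were among the 16. Leaving out each library gave 1 (without COLONIZED-WT 2) to 197 (without CONV-WT 3) calls, and edgeR without CONV-WT 3, chosen after seeing the data, gave 0, with 2263 genes at an unadjusted p under 0.05. The 18-library fit had 1199 such genes. TMM scaling and other filters gave 14 to 21 calls, with 14 to 16 of the 16 among them, while 14 calls with a sex covariate held 5 of the 16 and 19 calls from 9 WT libraries held 6. The 7350 genes within 2-fold became 5414 to 9339 when a library was left out. The 1125 calls in the libraries labelled Ern2-/- became 35 in edgeR (35 higher and 0 lower) and 417 to 2557 in leave-one-out fits. The 40 interactions became 0 in edgeR, with 1655 genes at an unadjusted p under 0.05, and 0 to 1231 in leave-one-out fits.

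With library total as a covariate, 10 of the named genes changed the sign of their log2 difference and were called in DESeq2. Among them Xbp1 (0.56), Muc2 (1.59), Duox2 (0.82) and Mki67 (0.75) turned positive. The depths of the groups did not overlap in these libraries, and the cause was not tested.

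Replicate numbers were shared by the groups, and deviations of libraries with the same number correlated at 0.181, 0.0996 and 0.113. Libraries with unlike numbers were not compared, so these values cannot show whether the numbers pair the samples. With a replicate block 14 genes were called (2 higher, 12 lower, 5 of them among the 16), 939 in the libraries labelled Ern2-/- and 58 interactions.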
